A study of Mus musculus with 6 samples.

Results

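The 10 genes described here are markers and products of the primitive and visceral endoderm, taken by name from the 15266 genes with deposited values. The names are Gata4, Gata6, Hnf4a, Dab2, Cubn, Amn, Apoe, Ttr, Apoa1 and Afp, and all 10 were present. They were measured by mRNA-seq in embryoid bodies (EBs), aggregates of mouse embryonic stem cells (mESCs) that differentiate into early embryonic cell types, at day 4 (D4) in serum without LIF. Both lines were edited from W9.5 mESCs. EVX1-Δfs (clone 14) has small deletions that shift the reading frame of both Evx1 alleles, and it still transcribes Evx1 and its antisense lncRNA Evx1as. Del#3 has a 2.6 kb deletion at Evx1 and Evx1as. The comparison therefore asks what changed when transcription of the locus was lost in addition to EVX1 protein, which the edits disrupt in both lines. Each line was differentiated 3 times, on different days, with the lines side by side, and each is a single edited line, so that a difference of clone and a difference of genotype cannot be told apart and p-values measure the spread between differentiations of these lines. Unedited cells were not analysed here.

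The primitive endoderm is the epithelium that forms on the surface of the inner cell mass and of EBs, and it gives rise to the visceral and parietal endoderm. GATA6 and GATA4 are transcription factors that set up this lineage, and HNF4A drives the secretory program of the visceral endoderm. The visceral endoderm feeds the embryo before the placenta works: it takes up proteins through the receptor cubilin, with its partner amnionless and the adaptor DAB2, and secretes carriers such as transthyretin, apolipoproteins and alpha-fetoprotein.

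The libraries held 9024579 to 15699124 reads on listed genes in EVX1-Δfs and 9729013 to 12231851 in Del#3. Values are normalized counts, that is reads divided by a size factor for each library. Evx1 stood at 2655 to 3671 normalized counts in EVX1-Δfs and at 34.6 ± 3.16 (SD, n = 3) in Del#3, so the targeted gene was low in the line labelled as its deletion. Evx1as stood at 648 ± 59.2 (SD, n = 3) and 24.8 ± 7.68 (SD, n = 3). EBs are mixtures, and fewer endoderm cells and less RNA per endoderm cell cannot be told apart in these values.

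No member passed the test between the lines. Of the 8 members with enough reads to be tested, 0 passed an adjusted p of 0.05 in limma, where 0.0155% of all 12891 genes tested did, and 0 had an unadjusted p under 0.05, where 1.03% of all genes did. edgeR and DESeq2 also called 0, with 0 at an unadjusted p under 0.05. Amn and Afp did not pass the filter on low reads. The median log2 fold change of the 8 tested members, Del#3 over EVX1-Δfs, was 0.12, beside 0.0022 over all genes tested. No tested member had libraries of one line all above those of the other, a pattern that 3.51% of all genes showed.

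**Figure D1:**
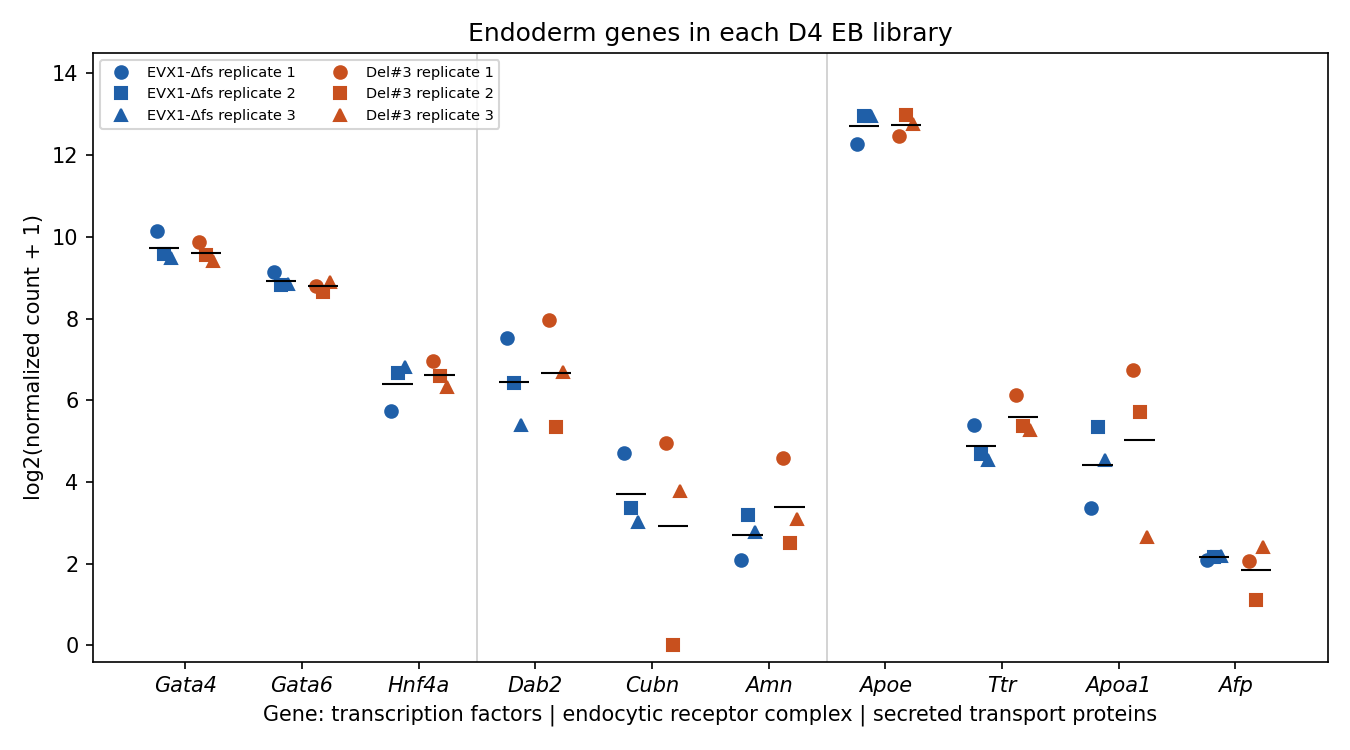
The y axis gives log2(normalized count + 1) of each of the 10 members, grouped by role on the x axis, with 1 point for each of the 6 libraries, EVX1-Δfs in blue, Del#3 in orange and a bar at each line's mean. The lines overlap for every member, and Del#3 replicate 1 is the highest library for 6 of them.

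The promoter sequences of 4 members are shown first, because they hold letters of the binding motifs of GATA, FOXA or HNF1 factors, which act in endoderm. RefSeq windows (GRCm38.p6) were found for 7 members, 11 windows in all, and Gata4 had no entry in the set of windows used. Positions are those of an exact match to NCBIM37 (mm9), the build of the deposited values. The stretch printed ends before the first annotated exon, and capitals mark the motif letters. Distances are counted to the RefSeq start, which for Dab2, Apoa1 and Cubn lies after the exon start at which the stretch stops.

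Dab2: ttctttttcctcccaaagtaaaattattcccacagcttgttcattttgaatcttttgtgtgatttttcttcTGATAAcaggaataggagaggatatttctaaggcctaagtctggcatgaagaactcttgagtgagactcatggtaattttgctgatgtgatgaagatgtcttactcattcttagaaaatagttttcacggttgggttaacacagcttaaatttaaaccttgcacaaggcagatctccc
Cubn: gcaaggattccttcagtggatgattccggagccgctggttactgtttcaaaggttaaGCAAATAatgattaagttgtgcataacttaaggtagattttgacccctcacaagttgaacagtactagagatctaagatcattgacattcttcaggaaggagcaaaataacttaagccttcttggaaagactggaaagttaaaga
Apoa1: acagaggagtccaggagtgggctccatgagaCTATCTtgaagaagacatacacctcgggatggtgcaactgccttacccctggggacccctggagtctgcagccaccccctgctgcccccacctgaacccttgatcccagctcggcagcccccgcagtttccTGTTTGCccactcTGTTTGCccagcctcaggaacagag
Afp: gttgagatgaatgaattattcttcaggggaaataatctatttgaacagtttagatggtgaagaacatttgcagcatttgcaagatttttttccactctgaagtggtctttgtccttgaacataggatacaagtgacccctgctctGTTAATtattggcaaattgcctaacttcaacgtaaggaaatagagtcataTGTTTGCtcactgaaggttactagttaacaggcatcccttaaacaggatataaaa

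The Dab2 stretch lies at chr15:6249539-6249787 on the plus strand, and its capitals are a GATA motif 179 bases before the start. The Cubn stretch lies at chr2:13413552-13413753 on the minus strand, with a FOXA motif on the opposite strand 193 bases before the start. The Apoa1 stretch lies at chr9:46036463-46036662 on the plus strand, with a GATA motif on the opposite strand 219 bases before the start and FOXA motifs 88 and 75 bases before it. The Afp stretch lies at chr5:90919490-90919739 on the plus strand, with an HNF1 motif 105 bases and a FOXA motif 55 bases before the start.

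Motifs were searched on both strands of the 250 bases before each start. The GATA motif (AGATAA or AGATAG or TGATAA or TGATAG) was in 4 of the 11 windows, of Apoa1, Apoe, Dab2 and Hnf4a, and in 26.5% of all 32851 promoter windows. The HNF1 motif (GTTAAT) was in 4 of the 11 windows, of Afp, Apoe, Dab2 and Hnf4a, and in 6.43% of all windows. The FOXA motif (TGTTTAC or TATTTAC or TGTTTGC or TATTTGC) was in 3 of the 11 windows, of Afp, Apoa1 and Cubn, and in 11.9% of all windows. The HNF4 motif (AAAGTCC or AAAGGTC) was in 0 of the 11 windows and in 6.76% of all. These are matches of letters only, and the gene totals do not say which start site was used.

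Among the transcription factors, Gata4 (chr14:63817759-63890529, minus strand) had 1124, 761 and 709 normalized counts in the EVX1-Δfs libraries, given here and after this in the order of replicates 1 to 3, and 933, 755 and 679 in those of Del#3. Replicate 1 was the highest of both lines, and the lines overlapped. The log2 fold change was -0.11 (SE 0.26; 95% interval -0.69 to 0.46; limma adjusted p = 1), and it was 0.091 without EVX1-Δfs replicate 1. Gata6, which acts upstream of Gata4 in the primitive endoderm, had 563, 449 and 458 in EVX1-Δfs and 447, 404 and 478 in Del#3. All but 1 of its libraries lay within 404 to 478 and the lines overlapped, with a log2 fold change of -0.14 (SE 0.23; 95% interval -0.66 to 0.38; limma adjusted p = 1). Hnf4a (chr2:163332544-163398646, plus strand) had 52.8, 100.8 and 111 in EVX1-Δfs and 124, 95.2 and 79.0 in Del#3. Its lowest library and its highest library were the replicate 1 libraries of the 2 lines, and the other 4 lay between them. The log2 fold change was 0.22 (SE 0.37; 95% interval -0.60 to 1.04; limma adjusted p = 1), and -0.11 without EVX1-Δfs replicate 1.

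The genes of the uptake machinery had wider ranges over the libraries. Dab2 (chr15:6249788-6390712, plus strand), the endocytic adaptor, had 183, 85.6 and 41.4 normalized counts in EVX1-Δfs and 251, 39.5 and 103 in Del#3. The replicate 1 libraries were the highest of both lines, and the lines overlapped. The log2 fold change was 0.22 (SE 0.67; 95% interval -1.26 to 1.70; limma adjusted p = 1), -0.44 without Del#3 replicate 1 and -0.31 without EVX1-Δfs replicate 3. Cubn (chr2:13197965-13413551, minus strand), the receptor cubilin, had 25.1, 9.38 and 7.09 in EVX1-Δfs and 30.3, 0 and 12.8 in Del#3. The zero stands for 0 reads in Del#3 replicate 2, where a floor of 3 reads is 3.48 normalized counts, and the other libraries held 6 to 38 reads. Its log2 fold change of -0.78 (SE 1.09; 95% interval -3.19 to 1.63; limma adjusted p = 1) turned to 0.68 without that library, and it was -1.82 with a pseudocount of 0.1 and -0.24 with one of 5. With all libraries kept, edgeR and DESeq2 gave 0.046 and 0.051, so its direction was not settled.

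Amn (chr12:112509322-112514637, plus strand), which carries cubilin to the cell surface, had 5, 7 and 5 reads in EVX1-Δfs and 29, 4 and 7 in Del#3. Del#3 replicate 1 held 29 of the 40 reads of its line, and the other libraries of the lines overlapped. The summed reads were 17 (exact Poisson 95% interval 9.90 to 27.2) in EVX1-Δfs and 40 (28.6 to 54.5) in Del#3. These intervals cover counting error only, and the exact permutation test over libraries gave p = 0.5 (two-sided, 3 libraries against 3, smallest possible p 0.1).

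The carrier proteins differed widely in level. Apoe (chr7:20281458-20284515, minus strand), the apolipoprotein E gene, which many cell types express, had 4911, 7933 and 7895 normalized counts in EVX1-Δfs and 5642, 8105 and 6955 in Del#3. The replicate 1 libraries were the lowest of both lines, and the lines overlapped. The log2 fold change was 0.016 (SE 0.27; 95% interval -0.58 to 0.61; limma adjusted p = 1), with values of -0.21 without EVX1-Δfs replicate 1 and -0.11 without Del#3 replicate 2. Afp (chr5:90919740-90937933, plus strand), alpha-fetoprotein, had 5, 3 and 3 reads in EVX1-Δfs and 4, 1 and 4 in Del#3, at most 5 in any library. The lines overlapped, and its summed reads were 11 (exact Poisson 95% interval 5.49 to 19.7) and 9 (4.12 to 17.1).

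Apoa1 (chr9:46036663-46038549, plus strand), the main protein of high density lipoprotein, had 9.24, 39.8 and 22.4 normalized counts in EVX1-Δfs and 106, 51.1 and 5.34 in Del#3. Both the highest and the lowest library were of Del#3. The log2 fold change was 0.62 (SE 0.92; 95% interval -1.41 to 2.65; limma adjusted p = 1), and -0.24 without Del#3 replicate 1, and edgeR and DESeq2 gave 1.23 and 1.20. Without Del#3 replicate 3 it was 1.80, with an unadjusted p of 0.0214 and an adjusted p of 1.00 in limma.

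Ttr, transthyretin, a carrier of thyroid hormone, had 40.9, 24.6 and 22.4 normalized counts in EVX1-Δfs and 69.3, 40.6 and 37.4 in Del#3. EVX1-Δfs replicate 1 lay above Del#3 replicates 2 and 3, so the lines overlapped. The log2 fold change was 0.72 (SE 0.41; 95% interval -0.20 to 1.64; limma adjusted p = 1). The exact permutation test gave p = 0.3 (two-sided, smallest possible p 0.1).

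**Figure D2:**
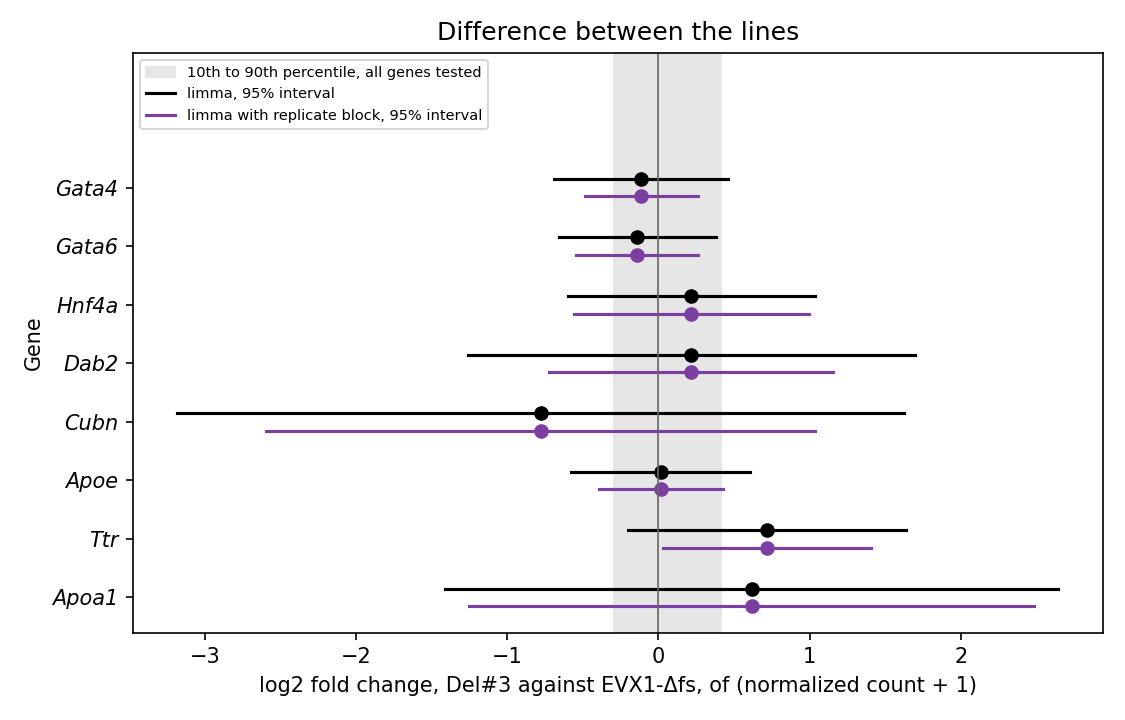
Log2 fold change of the 8 tested members, Del#3 over EVX1-Δfs, with its 95% interval from limma, in black without and in purple with the replicate number as a block, over a grey band from the 10th to the 90th percentile of all genes tested (-0.29 to 0.41). The intervals without the block all include 0, and with the block that of Ttr runs from 0.033 to 1.41.

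The intervals show which sizes of difference the test leaves possible. They lay within 2-fold in either direction for 3 of the 8 tested members, Gata4, Gata6 and Apoe, and for 61.1% of all genes tested. The intervals of Hnf4a, Dab2, Cubn, Apoa1 and Ttr reached past 2-fold, in both directions for Dab2, Cubn and Apoa1 and only upwards for Hnf4a and Ttr, whose lower limits were -0.60 and -0.20. With the block the interval of Hnf4a was -0.56 to 1.00, with both ends inside 2-fold before rounding.

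Libraries of the 2 lines with the same replicate number were taken as set up on the same day, although the labels give replicate numbers only. Deviations of same-numbered libraries correlated at 0.738, 0.317 and -0.053 across genes in replicates 1 to 3, so the pairing was not borne out for replicate 3. Within these pairs, Ttr was the only member higher in Del#3 in 3 of 3 pairs. Its ratio of Del#3 to EVX1-Δfs was 1.69, 1.65 and 1.67 in replicates 1 to 3. These ratios rest on 62, 21 and 19 reads in EVX1-Δfs and 87, 35 and 35 in Del#3. Counting error of each ratio is therefore large, and their closeness is no measure of precision. Higher in 3 of 3 pairs were 12.1% of all genes tested. With the day as a block, Ttr had an unadjusted p of 0.0420 and an adjusted p of 0.992 in limma, an unadjusted p of 0.0401 in edgeR and an unadjusted p of 0.129 in DESeq2, which gave it no adjusted p. In limma an unadjusted p under 0.05 with the block was reached by 1 of 8 tested members and by 4.62% of all genes, and 0 members were called after adjustment. Gata4 was lower in Del#3 in 3 of 3 pairs, by 0.27, 0.011 and 0.062 on the log2 scale, as were 11.0% of all genes. The remaining members had pairs of both signs. Apoa1 had differences of 3.39, 0.35 and -1.89, and Hnf4a of 1.22, -0.081 and -0.49.

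**Figure D3:**
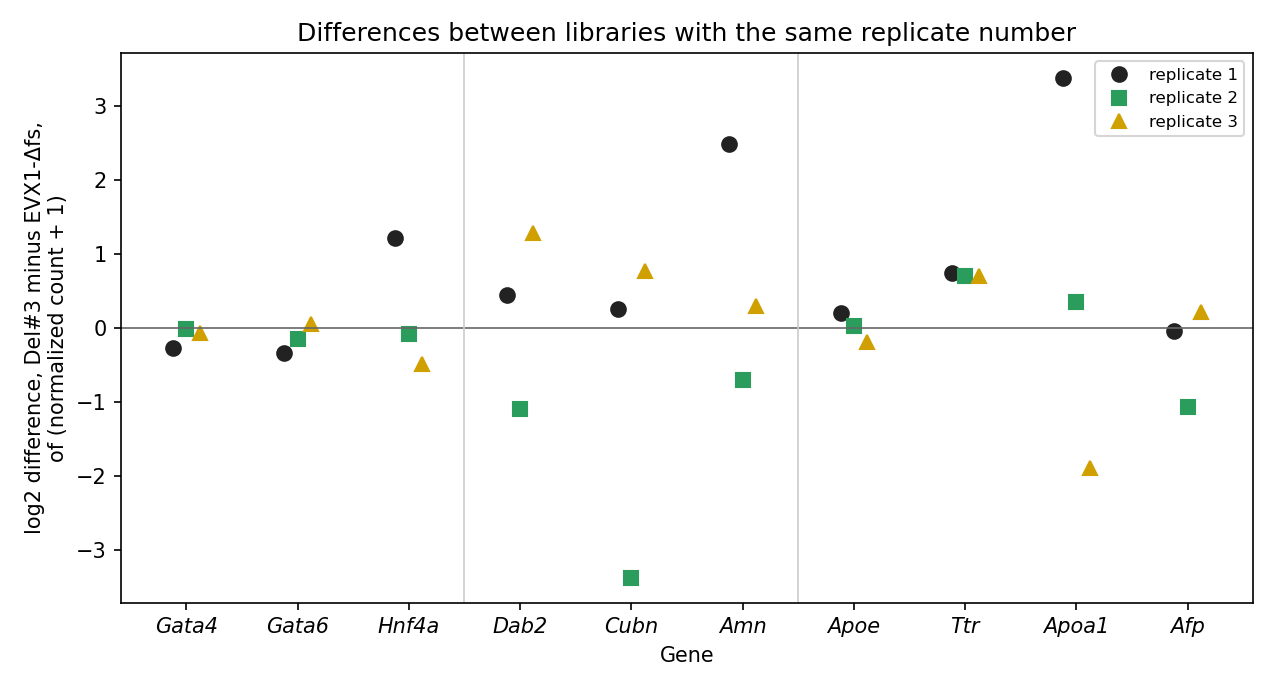
The y axis gives the log2 difference of Del#3 minus EVX1-Δfs, of normalized count + 1, for each of the 3 same-numbered pairs of each member on the x axis. The 3 points of Ttr lie at 0.70 to 0.75, while those of Apoa1 spread from -1.89 to 3.39.

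Replicate 1 stood apart from the other replicate numbers in some members. The replicate 1 libraries were also the deepest of both lines, with 15699124 reads on listed genes in EVX1-Δfs and 12231851 in Del#3. Day and depth can therefore not be told apart for replicate 1. Dab2 averaged 217, 62.5 and 71.9 normalized counts on the days of replicates 1 to 3, although its libraries of replicates 2 and 3 interleaved, and Gata4 averaged 1029, 758 and 694. Apoe went the other way, with 5276, 8019 and 7425. With line as covariate, the limma F test for day gave an unadjusted p of 0.00981 and an adjusted p of 0.0916 for Dab2 and an unadjusted p of 0.0333 and an adjusted p of 0.149 for Cubn. No tested member passed after adjustment, beside 4.24% of all genes, and 2 of 8 had an unadjusted p under 0.05, beside 27.7% of all genes. The DESeq2 likelihood ratio test called 1 member, Dab2 (adjusted p = 0.00719), beside 1293 of all 12891 genes tested, and gave no adjusted p for Cubn. The edgeR test called 0 members, beside 602 of all genes. The limma count rested on single libraries: Dab2 was called without EVX1-Δfs replicate 2 or 3 or Del#3 replicate 2 or 3, Cubn without EVX1-Δfs replicate 2 or 3 or Del#3 replicate 3, Apoa1 without EVX1-Δfs replicate 1 or 3, and none without Del#3 replicate 1. Across all genes the count of 546 ran from 197 to 3175 as single libraries were left out.

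The replicate number, taken as the day, took 90.1% of the sum of squares of Gata4, 91.8% of that of Apoe and 73.5% of that of Dab2 on the log2 scale, beside a median of 64.4% over all genes. It took 62.2% for Cubn, 45.1% for Gata6, 34.5% for Apoa1 and 8.39% for Hnf4a, and the median of the tested members was 57.3%. Line took 47.5% for Ttr and day 52.4%, with 0.0351% left, while 84.1% was left for Hnf4a. Day has more degrees of freedom than line, so these shares describe the libraries and are no test.

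**Figure D4:**
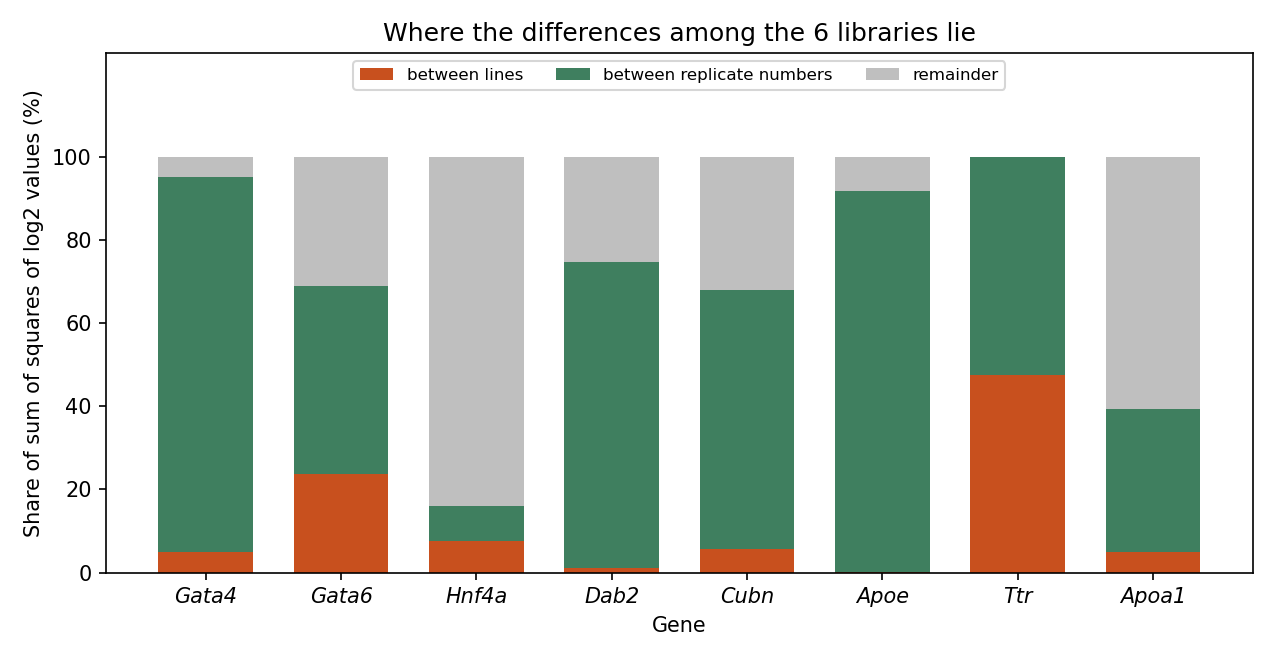
Stacked bars split the squared deviations of the log2 values of the 8 tested members, in percent, into those between lines, between replicate numbers (days) and the remainder. The remainder is the largest segment for Hnf4a and Apoa1, and the day segment for the other 6.

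Del#3 replicate 1 held the highest value of 6 of the 10 members, Hnf4a, Amn, Cubn, Dab2, Apoa1 and Ttr, or 5 of the 8 tested, whereas 22.0% of all genes tested were highest there. This library was also the deepest of Del#3. Of the 26 other visceral endoderm products and uptake genes present, 7 were highest in it. EVX1-Δfs replicate 1 was highest for Gata4 and Gata6, Del#3 replicate 2 for Apoe and Del#3 replicate 3 for Afp. The mean of the members on the log2 scale, each centred on its own mean, was 0.79 in Del#3 replicate 1, -0.48 in Del#3 replicate 2 and between -0.21 and 0.057 in the other 4 libraries. Without Cubn, a choice made after seeing the data, it was 0.70 in Del#3 replicate 1 and -0.17 in Del#3 replicate 2.

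Levels of different genes were compared as RPKM, reads scaled by the length of a gene's exons and by the reads of the library on listed genes. Apoe was the highest member at 327 ± 52.1 RPKM (SD over 6 libraries), followed by Gata4 at 20.1 ± 4.86 and Gata6 at 13.8 ± 1.95. Ttr (3.08 ± 1.49), Apoa1 (3.04 ± 3.09), Hnf4a (1.77 ± 0.509) and Dab2 (1.55 ± 1.19) followed. Amn (0.506 ± 0.453), Afp (0.144 ± 0.0493) and Cubn (0.117 ± 0.0987) were the lowest. With the longest transcript as length, Dab2 stood above Hnf4a in EVX1-Δfs, at 2.10 and 1.87 RPKM. Neighbours in this order did not overlap over the 6 libraries only between Apoe and Gata4 and between Gata6 and Ttr. Among the 14393 genes with a length, Gata4 and Gata6 were at percentiles 79.2 and 72.6 by RPKM, Hnf4a and Dab2 at 34.5 and 32.7, while Afp and Cubn lay at 7.71 and 5.92. These levels do not say which cells of the EBs held the transcripts.

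**Figure D5:**
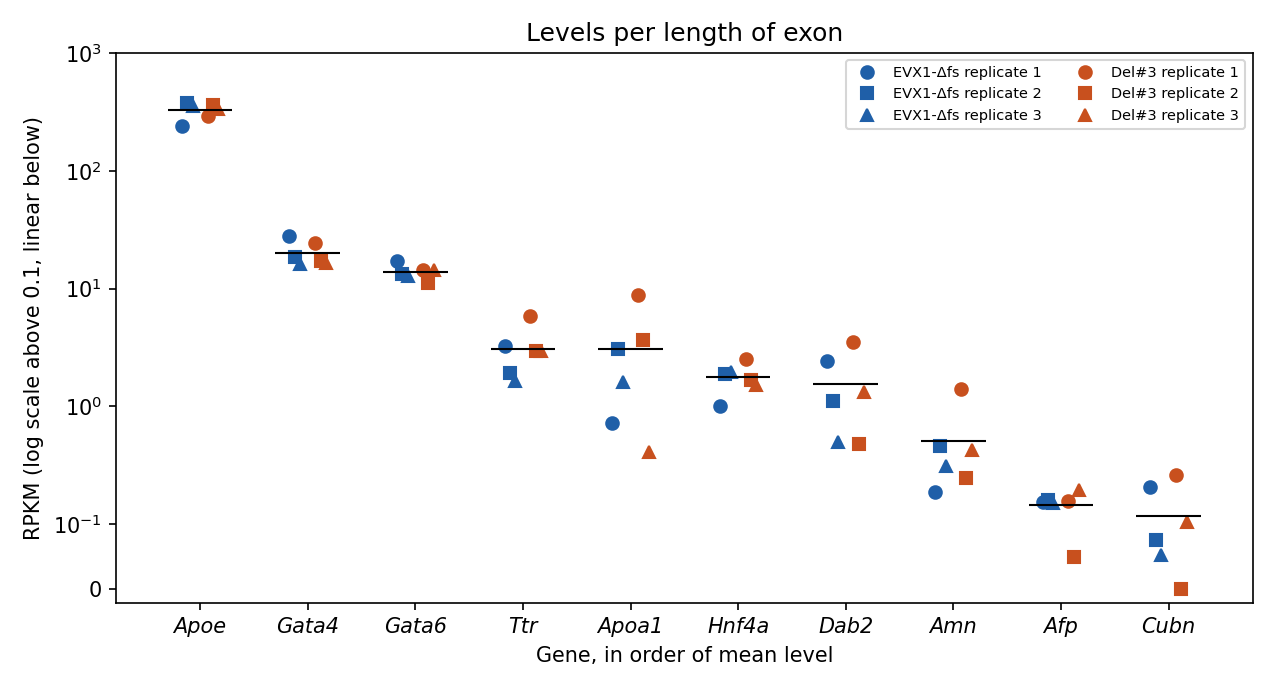
RPKM of the 10 members in the 6 libraries in order of mean level, on an axis that is logarithmic above 0.1 and linear below, with a bar at each mean. Apoe lies between 239.4 and 378.8 in all libraries, apart from Gata4 at 16.1 to 27.7.

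Over the 6 libraries Dab2 and Cubn had a Pearson r of 0.845, Hnf4a and Apoa1 of 0.75, and Gata4 and Gata6 of 0.63 on log2 values. Hnf4a ran against Gata6 (r = -0.80) and Gata4 (r = -0.49), and Apoe against Gata4 (r = -0.89) and Dab2 (r = -0.87). These are descriptions of 6 libraries that share days and lines. The genes whose pattern was most like the mean of the members were Frs3 (r = 0.979), Sema6a (0.975), Tmem154 (0.973), Myo10 (0.968), Lrp12 (0.965) and Opn3 (0.965), and 48 of 12883 genes had r over 0.9. Members were not scaled in that mean, so those of wide range, such as Cubn, Apoa1 and Dab2, weigh most in it. The ranking was not repeated without Cubn.

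Other genes of these tissues gave no called difference between the lines in limma either. Of 12 other endoderm transcription factors present, 10 were tested, 0 were called and 0 had an unadjusted p under 0.05, with a median log2 fold change of -0.15. Sox17, a factor of primitive and definitive endoderm, had -0.35 (SE 0.22) and was the 1 gene of the 10 whose lines did not overlap, a pattern of 3.51% of all genes. Foxa1 had -0.54, Foxa2 0.011 and Eomes -0.23. Of 26 other visceral endoderm products and uptake genes, 20 were tested, 0 were called and 0 had an unadjusted p under 0.05, with a median of -0.067. The keratins Krt8 and Krt18 of simple epithelia had 0.024 and -0.029, and Trf, transferrin, had -0.46. Of 15 parietal endoderm genes, 13 were tested with 0 called, 0 at an unadjusted p under 0.05 and a median of 0.0059, and the basement membrane genes Col4a1 and Sparc had 0.15 and -0.12. Of 10 anterior visceral endoderm genes, 9 were tested with 0 called, 0 at an unadjusted p under 0.05 and a median of -0.088. The secreted inhibitors Cer1 and Dkk1 had -0.28 and -0.29, and Sfrp5 had 0.66 (SE 0.54). With the block, limma also called 0 genes of these lists.

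Markers of other cell types that EBs can hold were summed in each library. The summed normalized counts of definitive endoderm markers were 12569 to 22437 in EVX1-Δfs and 9990 to 19533 in Del#3 and were mostly those of Trh, with a negative log2 fold change in all 6 tested (median -0.17). Sums were 4475 to 5028 and 3865 to 5221 for primitive streak and mesoderm, 2419 to 3018 and 2610 to 2882 for blood, and 1097 to 1152 and 1055 to 1330 for cardiac mesoderm. Those of pluripotency were 8716 to 10259 and 6358 to 10672, so that the lines overlapped in these 5 lists. Trophoblast markers, 5 of 6 tested with a positive log2 fold change, summed to 916 to 1122 in EVX1-Δfs and 1146 to 1452 in Del#3, ranges that did not overlap. Cdx2, which the posterior mesoderm also expresses, had 444 to 643 and 624 to 778 of these counts, and without it, a choice made after seeing the data, the sums were 471 to 672 and 504 to 675 and overlapped. All 8 pluripotency markers had a negative log2 fold change, with a median of -0.34, where 49.6% of all genes were negative. Zfp42 (-0.82, unadjusted p = 0.0156) and Dppa4 (-0.83, unadjusted p = 0.0407) did not overlap between the lines, where 3.51% of all genes did not and 1.03% had an unadjusted p under 0.05, and none was called by limma after adjustment. Their part in the members' values was not tested.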

How the data were processed

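D4 EBs of EVX1-Δfs (clone 14) and Del#3 were measured in 3 libraries each. The authors selected poly(A) RNA, sequenced on an Ion Proton, mapped with TopHat2 followed by TMAP (genome build mm9), counted with HTSeq and tested with DESeq2, with versions not given in the sources used here. The deposited signal values are counts divided by 1 size factor per library. All were whole multiples of the worth of 1 read (tolerance 0.01), so reads were recovered. 

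Lines were compared by limma 3.58.1 (R 4.3.3) with a trend on log2(normalized count + 1), after filterByExpr of edgeR 4.0.16 with a minimum count of 10, which kept 12891 genes. Fold changes are on this scale, on which values of low genes depend on the pseudocount. The Benjamini-Hochberg adjustment ran over all of these, with calls at 0.05. Days were compared by an F test with line as covariate. RPKM used exon unions of the NCBIM37 annotation, which gave lengths for 14393 genes. Alternatives were TMM and total-read scaling, pseudocounts of 0.1 and 5, other filters, edgeR, DESeq2 1.42.0, a replicate block and leaving out each library. The fits were also run on simulated counts with the same dispersion for all genes and, where lines were compared, no difference between days. That run does not show how small a difference could be found in these data. By the submitters' design each side-by-side differentiation, called a replicate, had its own day, and the replicate number was taken as that shared day and used for pairing. Deviations of same-numbered libraries correlated at 0.738, 0.317 and -0.053 across genes and at 0.254, 0.624 and -0.427 across the members, and EVX1-Δfs replicate 3 correlated best with Del#3 replicate 2 (0.418 across genes).

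All members are named in the text. In each other list the rule named the 3 genes of highest mean and the 2 of largest absolute fold change, of which some are given, and beside these Evx1, Evx1as and the 6 genes most like the members. The members, lists, motifs and tests were chosen with earlier results of these data known. Promoter sequence of chromosome 18 was not used here.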

Additional observations from a re-analysis of the deposited data

How the results depend on the processing

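Between the lines, 0 members were called in every alternative, with 6 members tested where 10 reads were required in every library and 10 with no filter. The replicate block in DESeq2 gave no adjusted p for Apoa1, Cubn and Ttr. The lowest adjusted p of any member was 0.992. The count over all genes was 2, and 2 or 3 in the alternatives other than the replicate block in DESeq2, which gave 18 against 3 in DESeq2 without it. With the replicate block limma and edgeR each called 3 genes, and the block changed no call of a member. Ttr and Gata6 kept their direction in all 17 alternatives. Leaving out single libraries moved the log2 fold change of Ttr from 0.45 to 0.98, of Gata6 from -0.20 to -0.037, of Gata4 from -0.24 to 0.091, of Hnf4a from -0.11 to 0.42, of Cubn from -1.80 to 0.68, of Dab2 from -0.44 to 0.88, of Apoa1 from -0.24 to 1.80 and of Apoe from -0.21 to 0.15. Among these, reversals were Gata4 (0.091) and Hnf4a (-0.11) without EVX1-Δfs replicate 1, Cubn (0.68) without Del#3 replicate 2, Dab2 without EVX1-Δfs replicate 3 (-0.31) and without Del#3 replicate 1 (-0.44), Apoa1 (-0.24) without Del#3 replicate 1, and Apoe without EVX1-Δfs replicate 1 (-0.21) and Del#3 replicate 2 (-0.11). Cubn also turned to 0.046 in edgeR and 0.051 in DESeq2, and Apoe to -0.0025 in both. The cause was not tested. Between days, 546 genes were called, 347 with TMM, 317 with total reads, 1293 by DESeq2 and 197 to 3175 as single libraries were left out. Members called between days were 0, 1 by DESeq2 and 0 to 3 as single libraries were left out. With the longest transcript as length, the EVX1-Δfs level of Apoe went from 324 to 463 RPKM and that of Dab2 from 1.33 to 2.10. Afp, Amn and Cubn had few reads, so counting error is large for them. Apoa1 and Ttr had few in some libraries too, down to 5 and 19 reads.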

Other observations

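Some genes outside the members were read in Del#3 replicate 1 after their values were seen. Apob, the large apolipoprotein of yolk sac lipoproteins, had 52.6 normalized counts there (66 reads) and at most 3.48 in the other 5 libraries. Sfrp5 had 129.9 there and at most 58.1 elsewhere, and Lrp2, the receptor megalin that works with cubilin, had 424.8 there and at most 352.8 elsewhere. Among the other tested anterior visceral endoderm genes, Fzd5 was also highest there, but Cer1 (1448) and Dkk1 (261) were lowest there. Hba-x, an embryonic globin, had 354.7 there and at most 221.1 elsewhere, and Tnnt2, a troponin of heart muscle, had 17.5 and at most 6.60. In the same blood and cardiac lists Gata1 and Mef2c were also highest there, whereas Tal1, Lmo2, Etv2, Hand2 and Smarcd3 were lowest there. Of 26 other visceral endoderm genes present, 20 of them tested, 7 were highest in this library, beside 22.0% of all genes tested. Another 6 were highest in EVX1-Δfs replicate 1 and 6 in EVX1-Δfs replicate 3. The genes named here were picked for their values, so no test of them is given here.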
